A study of Mus musculus with 12 samples.

Results

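The 9 genes described here encode ubiquitin itself (*Ubb*), a pair of AN1 zinc finger proteins that bind ubiquitin chains or the proteasome (*Zfand2a* and *Zfand5*), the membrane adaptor *Herpud1*, the p97 segregase with its substrate adaptors (*Vcp*, *Ufd1* and *Nploc4*) and a pair of deubiquitinases (*Usp14* and *Usp2*). They were found by gene symbol among the 45777 genes of the deposited table, and all 9 were present and passed the filter on low counts in every comparison. The list was drawn up with the differences between acetaminophen and vehicle in these same livers already known, so those differences are given as descriptions with no p-value. Where a member is said to pass or lose a threshold in them, this too is a description. Liver RNA had been sequenced from 12 male C57BL/6 mice, whose age label reads 10 to 12 weeks, with 3 livers in each of 4 groups. These were WT mice given vehicle, WT mice given acetaminophen (APAP), Gα12-/- mice given vehicle and Gα12-/- mice given APAP. All mice were fasted overnight before APAP was injected once into the peritoneum at 300 mg/kg, the livers were taken 6 h later, and the WT mice were age-matched littermates. APAP is a painkiller that kills hepatocytes when overdosed, and *Gna12* encodes the α subunit of the G12 heterotrimeric G protein. Livers of the Gα12-/- group are called livers labelled KO here, for the reason given with the *Gna12* counts.

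Ubiquitin is a small protein that E1, E2 and E3 enzymes attach to other proteins in chains, and proteins so marked are unfolded and degraded by the 26S proteasome. Misfolded proteins of the endoplasmic reticulum (ER) are marked at the ER membrane and pulled into the cytosol by p97, a hexameric ATPase that recognizes ubiquitin chains through its Ufd1-Npl4 adaptor, a route called ER-associated degradation. Heat and reactive chemicals that damage proteins raise transcription of ubiquitin genes and of the AN1 gene *Zfand2a* through heat shock factors. The APAP metabolite NAPQI binds to cysteines of hepatocyte proteins.

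RefSeq promoter windows (GRCm38.p6, from 250 bases before to 50 bases after a transcript start) were given for 8 of the 9 genes, in 9 windows, since *Ubb* had a second start. The 3 promoters below are shown because they hold heat shock or ER stress elements, and *Vcp*, whose window also held a heat shock element, is described after them. Each is printed 5′ to 3′ on the strand of its gene up to the base before the start, with the matched motifs in capitals. *Zfand2a* lies on the minus strand at chr5:139484492-139484741, *Nploc4* on the minus strand at chr11:120437701-120437950 and *Herpud1* on the plus strand at chr8:94386179-94386428.
Zfand2a: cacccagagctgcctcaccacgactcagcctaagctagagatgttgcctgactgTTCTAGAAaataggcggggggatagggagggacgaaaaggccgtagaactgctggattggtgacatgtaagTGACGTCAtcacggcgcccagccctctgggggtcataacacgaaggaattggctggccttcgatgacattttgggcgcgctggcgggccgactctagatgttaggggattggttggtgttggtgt
Nploc4: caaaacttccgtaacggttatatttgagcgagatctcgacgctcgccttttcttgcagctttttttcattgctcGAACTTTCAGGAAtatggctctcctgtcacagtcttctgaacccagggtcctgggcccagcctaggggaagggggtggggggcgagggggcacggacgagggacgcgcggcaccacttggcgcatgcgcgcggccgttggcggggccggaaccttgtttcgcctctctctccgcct
Herpud1: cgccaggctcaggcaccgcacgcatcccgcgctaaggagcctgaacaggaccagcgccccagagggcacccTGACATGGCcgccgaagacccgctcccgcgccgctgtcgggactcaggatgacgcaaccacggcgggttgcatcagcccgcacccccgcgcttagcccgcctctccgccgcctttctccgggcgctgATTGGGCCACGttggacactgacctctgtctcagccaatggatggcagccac

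Positions of motifs are counted from the transcript start, which is position 0, and both strands were searched. The *Zfand2a* window held a heat shock element of 2 units facing outward, TTCNNGAA, at -196 to -189, which occurred in 8.52% of all 32851 promoter windows of the same length. It also held the cyclic AMP response element TGACGTCA at -125 to -118, found in 1.79% of all windows. *Nploc4* carried a heat shock element of 3 units, GAANNTTCNNGAA, at -176 to -164, which occurred in 0.603% of all windows and overlaps both motifs of 2 units. *Herpud1* held the ER stress response element II, ATTGGNCCACG, at -52 to -42, which was present in 12 windows (0.0365%). The element of 2 units facing inward, GAANNTTC (7.86% of windows), was present in *Vcp* at -60 to -53 besides *Nploc4*. An antioxidant response element, TGACNNNGC (12.4% of windows), was matched in *Herpud1*, *Ubb*, *Usp2*, *Vcp* and *Zfand5*. In the *Herpud1* sequence the first capitalized stretch is this motif and the second is the ER stress element. No member window matched the ER stress response element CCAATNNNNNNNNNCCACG (0.119% of windows), the D-box TTATGTAA (0.938%) or the E-box CACGTG (7.15%). The *Usp2* window (chr9:44084670-44084969, plus strand) lay inside the gene, which begins at 44067021, so the bases before that first position were not searched. A match says only that these letters are present.

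The total count per liver ranged from 49737950 to 69566079, and all 8 hepatocyte markers were above 0 in every liver. *Gna12* (chr5:140759944-140830431) was not lower under the KO label. Its level in CPM (read counts as a share of the library total, after TMM scaling of the totals) was 66.7, 34.8 and 63.3 in WT livers with vehicle and 67.2, 66.6 and 54.6 in livers labelled KO with vehicle. After APAP it was 23.7, 58.1 and 50.5 CPM in WT livers and 43.5, 48.3 and 46.2 CPM under the KO label. Which part of the gene was deleted is not given in the sources used here, so these counts do not check the label, and directions between the genotypes below are those of the labels. The study itself examined *Gna12* in WT littermates and knockout mice by PCR on tail DNA, qRT-PCR on liver and immunoblots for the protein. Whether those mice were the ones sequenced is not given in the sources used here. Replicate 1 of the WT livers given APAP stood apart, with hemoglobin transcripts at 1.29% of its counts against 0.0207% to 0.0619% elsewhere and a TMM factor of 0.750. The 5 erythroid markers, all above 0 in every liver, summed to 17366 CPM in that liver, to 334 and 376 CPM in the other WT livers given APAP, to 333 to 353 CPM in WT vehicle livers, to 346 to 749 CPM in KO vehicle livers and to 253 to 452 CPM in KO APAP livers. The 8 neutrophil markers, of which *Camp* was at 0 in every liver, summed to 118 CPM there and to 7.12 and 16.6 CPM in the other WT livers given APAP. In the other groups they summed to 0.169 to 14.5 CPM (WT vehicle), 0.253 to 0.928 CPM (KO vehicle) and 0.336 to 5.11 CPM (KO APAP). The 8 hepatocyte markers summed to 143720 CPM there and to 75810 to 109609 CPM in the other 11 livers, and the 6 stellate cell markers to 321 CPM there and to 134 to 264 CPM elsewhere. Under the KO label, APAP against vehicle called 3 of the 6 stellate markers lower with edgeR (all 6 negative, median log2 fold change -0.79), 2 of 6 endothelial markers lower and 1 higher, 1 of 7 lymphocyte markers lower, 1 of 8 hepatocyte markers in each direction and 0 of 8 Kupffer cell markers (2 were lower at an unadjusted p under 0.05). Of all genes tested under that label, 13.0% were called higher and 9.60% lower, and 37.1% had an unadjusted p under 0.05. In WT livers 1 of 6 endothelial markers was called higher, beside 1.62% of all genes. The part of these cells in the results for the 9 genes was not tested. The WT value of each of the 9 genes is given with and without WT APAP replicate 1. In bulk tissue, fewer cells of a type and less RNA per cell cannot be told apart.

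On a scale per transcript length (TPM as deposited), the 9 genes spanned a wide range of levels with vehicle. *Ubb* was the most abundant, at 517 to 726 TPM over the 6 vehicle livers, and overlapped with *Herpud1*, at 339 to 632 TPM. *Vcp* followed at 120 to 175 TPM and overlapped with no other member. Its adaptors *Nploc4* (25.5 to 37.2 TPM) and *Ufd1* (20.1 to 25.1 TPM) lay several-fold lower, and *Usp2* (11.7 to 44.8 TPM) overlapped with both. *Usp14* ranged from 10.5 to 14.1 TPM, and *Zfand5* (6.16 to 7.52 TPM) and *Zfand2a* (4.18 to 7.11 TPM) were lowest and overlapped with each other. In the 6 APAP livers, *Zfand2a* (10.4 to 104 TPM) and *Zfand5* (27.3 to 64.8 TPM) overlapped with *Nploc4* (19.8 to 60.6 TPM), and *Usp2* was lowest at 1.68 to 8.76 TPM. *Vcp* exceeded *Nploc4* by 4.26 to 5.04 times in TPM in WT vehicle livers and by 4.61 to 4.89 times in WT APAP livers, and under the KO label by 4.62 to 4.71 and 4.42 to 4.96 times, so the ratio overlapped between vehicle and APAP. WT APAP replicate 1 had the lowest TPM of the APAP livers for each member, which was not so in CPM, and the reason was not tested.

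**Figure D1:**
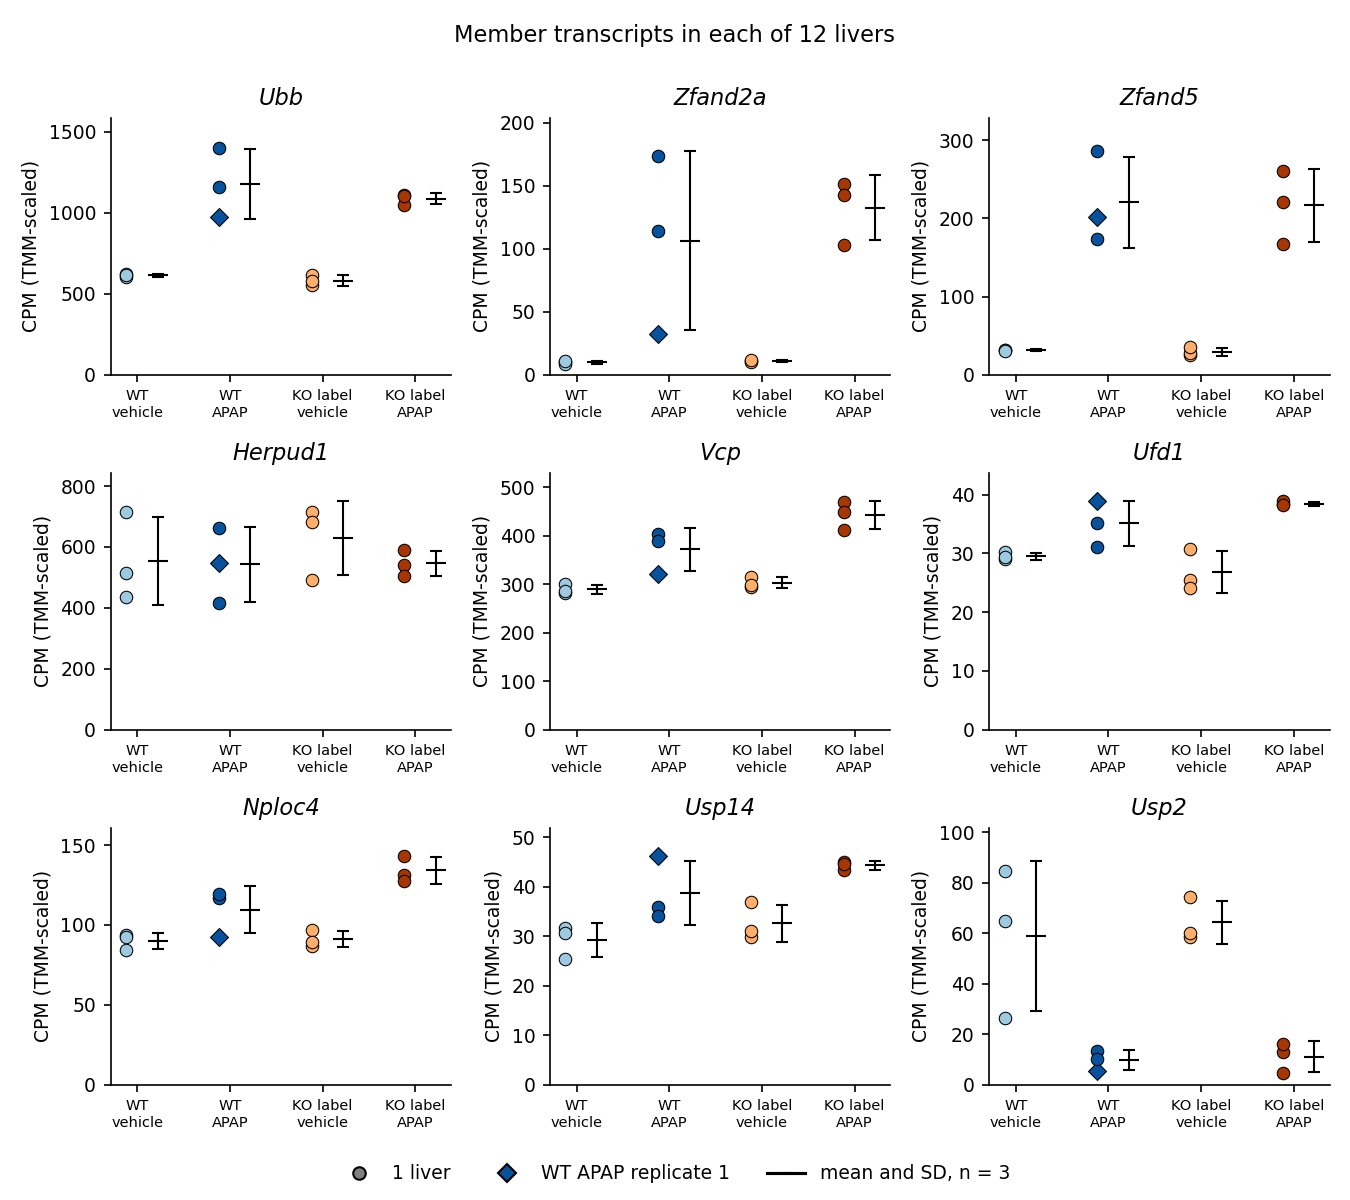
Level of each of the 9 transcripts in each liver, in CPM after TMM scaling (linear axes from 0), with points for single livers, a diamond for WT APAP replicate 1, and the mean and SD of 3 livers to the right of the points. *Zfand2a* and *Zfand5* lie far above vehicle in every APAP liver, *Usp2* lies below it, and *Herpud1* overlaps between all 4 groups.

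Counted over the 9 genes for APAP against vehicle with edgeR's quasi-likelihood test and an adjusted p under 0.05, 2 were higher (*Zfand2a* and *Zfand5*) and 1 lower (*Usp2*) in WT livers, where 1.62% of all 15693 genes tested were higher and 0.427% lower. Under the KO label 7 were higher and 1 lower, all but *Herpud1*, beside 13.0% and 9.60% of 15665 genes. These 2034 higher and 1504 lower genes became 1261 and 734 without KO vehicle replicate 2 and 1320 and 751 without KO APAP replicate 3. The groups of 3 livers did not overlap for 7 members in WT livers, where this held for 24.9% of all genes, and for 8 under the KO label, where it held for 42.8%. These counts carry no inference, since the genes were chosen on these contrasts. Counts, medians and p-values of APAP against vehicle for the gene lists below are descriptions too. Those lists were also chosen with earlier results of these data known. Of all 15693 genes tested in WT livers, 18% had an unadjusted p under 0.05. The DESeq2 Wald test called 877 of them higher and 536 lower. The WT calls of *Zfand2a* and *Usp2* rested on several single livers. That of *Zfand2a* was lost without APAP replicate 3 (log2 fold change, APAP over vehicle, 3.39) or vehicle replicates 1 (3.42), 2 (3.36) or 3 (3.50), and that of *Usp2* without APAP replicates 1 (-2.32) or 3 (-2.62) or vehicle replicates 1 (-2.23) or 3 (-2.53). Under the KO label the call of *Vcp* was lost without APAP replicate 1 (0.51) or vehicle replicate 2 (0.58), that of *Ufd1* without APAP replicates 1 (0.53) or 3 (0.54) or vehicle replicates 1 (0.52) or 2 (0.45), and that of *Usp14* without any liver except vehicle replicate 3 (0.41 to 0.46).

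The AN1 zinc finger genes showed the largest differences among the 9. *Zfand2a* (AIRAP, chr5:139471216-139484491, minus strand) encodes an arsenite-inducible protein that associates with the 19S cap of the proteasome. In WT livers it was at 9.75, 8.91 and 10.98 CPM with vehicle and at 32.4, 173 and 114 CPM after APAP. Livers labelled KO held 11.2, 10.4 and 11.5 CPM with vehicle and 151, 103 and 143 CPM after APAP. All 6 APAP livers exceeded all 6 vehicle livers, and WT APAP replicate 1 was the lowest of them. The log2 fold change (APAP over vehicle) was 3.44 (SE 0.55) in WT livers and 3.59 (SE 0.18) under the KO label, which correspond to 10.8-fold and 12.1-fold. Relative to the vehicle mean of its label, *Zfand2a* stood 17.5-fold higher in WT APAP replicate 2, 3.29-fold higher in replicate 1 and 9.34-fold to 13.7-fold higher in the livers labelled KO. With replicate 1 left out, the WT value was 3.86.

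*Zfand5* (ZNF216, chr19:21271786-21286840, plus strand) encodes a ubiquitin-binding activator of the 26S proteasome. It was at 32.2, 32.0 and 30.9 CPM in WT vehicle livers and at 201, 174 and 286 CPM in WT APAP livers. Livers labelled KO held 25.9, 27.3 and 35.1 CPM with vehicle and 167, 261 and 221 CPM after APAP. The groups did not overlap, and WT APAP replicate 1 lay between the other WT APAP livers. The log2 fold change was 2.81 (SE 0.23) in WT livers and 2.89 (SE 0.21) under the KO label, or 7.00-fold and 7.40-fold, and 2.86 in WT livers without replicate 1.

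The AN1 family has 5 other genes in the table. With edgeR's quasi-likelihood test and Benjamini-Hochberg adjustment over all genes, 0 of the 5 passed in WT livers, where *Zfand3* had the highest log2 fold change (0.32, SE 0.16, adjusted p = 0.345). At an unadjusted p under 0.05 and by the DESeq2 Wald test the family counts in WT livers were likewise 2 higher and 0 lower, all of them members. *Zfand1* and *Zfand6* fell under the KO label, by 0.69 (SE 0.19, adjusted p = 0.0361) and 0.65 (SE 0.20, adjusted p = 0.0494) on the log2 scale, where 9.60% of all genes were called lower. Both calls were lost without KO APAP replicate 1 (-0.58 and -0.53), KO APAP replicate 3 (-0.60 and -0.58), or any of the 3 KO vehicle livers (-0.68, -0.78 and -0.59 for *Zfand1*, and -0.71, -0.71 and -0.50 for *Zfand6*). In WT livers *Zfand1* was at -0.21 (SE 0.27) and *Zfand6* at -0.17 (SE 0.32). *Zfand2b*, the paralog of *Zfand2a* that carries a membrane anchor, had log2 fold changes of 0.04 (SE 0.15) and -0.09 (SE 0.16), and *Zfand4* of 0.05 (SE 0.21) and -0.15 (SE 0.21). The median over the 7 family genes was 0.05 in WT livers and -0.09 under the KO label, beside medians of 0.03 and -0.02 over all genes tested.

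**Figure D2:**
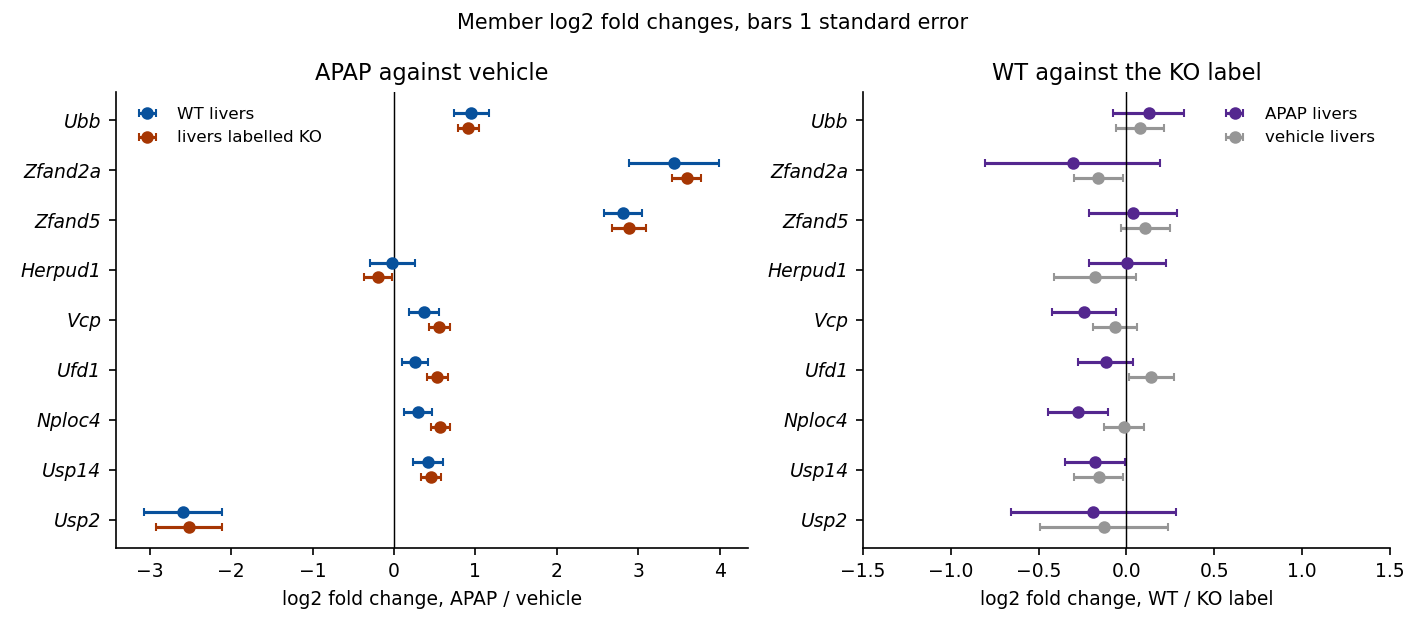
Log2 fold changes of the 9 genes with bars of 1 standard error, for APAP against vehicle (left) and for WT against the KO label (right). On the left *Zfand2a*, *Zfand5* and *Usp2* lie furthest from 0 under both labels, and on the right every point lies between -0.31 and 0.14.

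*Ubb* (chr11:62551171-62553213, plus strand) encodes a head-to-tail chain of ubiquitin units that is cut into single ubiquitin molecules. Its level was 601, 625 and 614 CPM in WT vehicle livers and 974, 1402 and 1161 CPM in WT APAP livers. Livers labelled KO held 554, 616 and 576 CPM with vehicle and 1051, 1111 and 1103 CPM after APAP. On this scale all APAP livers exceeded all vehicle livers, with log2 fold changes of 0.95 (SE 0.22) in WT livers and 0.91 (SE 0.13) under the KO label, or 1.93-fold and 1.88-fold. On the TPM scale WT APAP replicate 1, at 651 TPM, lay within the range of WT vehicle livers (610 to 697 TPM), and the other 5 APAP livers lay between 1281 and 1759 TPM. *Ubb* passed the adjusted threshold under the KO label, did not in WT livers with edgeR, and did in WT livers without APAP replicate 1, where the log2 fold change was 1.06. The DESeq2 Wald test called it in WT livers with every liver kept (0.93). Since *Ubb* was chosen on these contrasts, its calls are descriptions. Its log2 interaction of label and treatment was 0.04 (SE 0.22).

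Reads of *Ubb* are not fully its own. Of the 1386 windows of 100 bases along its GENCODE transcripts, 604 (43.6%) occur letter for letter in transcripts of *Gm1821*, and 179 of these also in *Gm8797*. *Gm1821* was at 77.2 to 82.9 CPM in WT vehicle livers and at 144 to 173 CPM in WT APAP livers, and how the counting divided shared reads is not given in the sources used here. The counts of *Ubb* and *Gm1821* are therefore uncertain relative to each other. Likewise 1656 of 4842 windows of *Vcp* (34.2%) occur in *Vcp-rs*, which was at 12.3 to 18.2 CPM in WT vehicle livers where *Vcp* was at 282 to 300.4 CPM. The other 7 members shared none.

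The 3 genes of the p97 complex were higher after APAP by less than 1.5-fold. *Vcp* (chr4:42979964-43000507, minus strand), which encodes p97, was at 282, 300.4 and 287 CPM in WT vehicle livers and at 322, 403 and 390 CPM in WT APAP livers. Livers labelled KO were at 295, 316 and 298 CPM with vehicle and at 469, 412 and 450 CPM after APAP, with no overlap under either label. The log2 fold changes were 0.37 (SE 0.18) in WT livers, 0.45 there without APAP replicate 1, and 0.56 (SE 0.12) under the KO label. In TPM, however, WT APAP replicate 1 was at 96.7, below all vehicle livers.

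*Nploc4* (chr11:120379798-120437700, minus strand) encodes Npl4, the subunit of the adaptor that binds ubiquitin chains. Its levels were 93.4, 84.3 and 92.4 CPM in WT vehicle livers and 92.7, 117 and 119 CPM in WT APAP livers. Livers labelled KO were at 87.0, 96.7 and 89.5 CPM with vehicle and at 143, 131 and 128 CPM after APAP. WT APAP replicate 1 lay within the vehicle range in CPM, so the WT groups overlapped, whereas the KO groups did not. In TPM it was at 19.8, below all vehicle livers (25.5 to 37.2 TPM). The log2 fold changes were 0.29 (SE 0.17) in WT livers, 0.39 there without replicate 1, and 0.57 (SE 0.12) under the KO label.

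*Ufd1* (chr16:18811736-18835261, plus strand) encodes the other subunit of the adaptor. In WT livers it was at 29.0, 30.2 and 29.4 CPM with vehicle and at 39.0, 31.2 and 35.1 CPM after APAP. Its values under the KO label were 25.5, 24.0 and 30.8 CPM with vehicle and 38.4, 38.8 and 38.2 CPM after APAP. In CPM neither pair of groups overlapped, and WT APAP replicate 1 was the highest of its group. The TPM values reversed that order, with 19.5 TPM in this liver against 29.2 and 28.9 TPM in the other WT APAP livers, so that it lay below all vehicle livers (20.1 to 25.1 TPM). The log2 fold changes were 0.26 (SE 0.15) in WT livers, 0.17 there without replicate 1, and 0.53 (SE 0.13) under the KO label.

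Of 28 tested genes of p97 and its cofactors under the KO label, 10 rose and 1 fell. Outside the 3 members these were 7 and 1 of 25, beside 13.0% higher and 9.60% lower of all genes tested. *Yod1*, a deubiquitinase that acts with p97, rose by 1.01 (SE 0.14, edgeR adjusted p = 0.00281) on the log2 scale. *Rhbdd1*, a rhomboid protease of the ER membrane, rose by 0.77 (SE 0.13, edgeR adjusted p = 0.00561), and *Plaa*, a ubiquitin-binding cofactor, by 0.71 (SE 0.14, edgeR adjusted p = 0.0109). *Svip*, a small inhibitor of ER-associated degradation, fell by 1.00 on the log2 scale (SE 0.16, edgeR adjusted p = 0.0050). The count of 10 was 5 without KO APAP replicate 1, without KO APAP replicate 3 or without KO vehicle replicate 2, and 6 without KO vehicle replicate 1. In WT livers 0 of 27 passed with edgeR (1 without WT APAP replicate 2), 4 were higher and 4 lower at an unadjusted p under 0.05, and the DESeq2 Wald test called 2 higher and 3 lower. Of all genes tested there, 18% had an unadjusted p under 0.05. Values in WT livers were 0.87 (SE 0.39) for *Yod1*, 0.84 (SE 0.22) for *Rhbdd1*, 0.61 (SE 0.15) for *Plaa* and -0.74 (SE 0.21) for *Svip*. The median of the list was 0.10 in WT livers and 0.21 under the KO label.

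*Herpud1* (chr8:94386429-94395371, plus strand) encodes an ER membrane protein with a ubiquitin-like domain that assembles the Hrd1 ligase complex, and it is a classical target of the unfolded protein response. It was at 715, 513 and 435 CPM in WT vehicle livers and at 549, 417 and 663 CPM in WT APAP livers. Livers labelled KO were at 491, 715 and 683 CPM with vehicle and at 542, 590 and 506 CPM after APAP. All groups overlapped, with log2 fold changes of -0.02 (SE 0.27) in WT livers and -0.20 (SE 0.17) under the KO label. The sign in WT livers turned on single livers, since it was 0.20 without WT vehicle replicate 1 and 0.12 without WT APAP replicate 2, and it was -0.04 without WT APAP replicate 1. In TPM that liver was the lowest of all 12, at 279. Among the 9, *Herpud1* had the smallest absolute value in both comparisons. Its window is the one with the ER stress element shown above.

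The 24 genes of ER-associated degradation had medians of -0.24 in WT livers and -0.19 under the KO label, and 16 and 15 of them had negative values. In livers labelled KO 4 of the 24 rose and 2 fell, counts near the shares of all genes called there (13.0% higher and 9.60% lower). The count of 2 was 1 without any single liver except KO APAP replicate 2, where it was 3. *Dnajb9*, an ER co-chaperone, rose by 1.29 (SE 0.15, edgeR adjusted p = 0.00136), and the ER-linked E2 enzymes *Ube2g2* and *Ube2j2* rose by 0.77 (SE 0.15, edgeR adjusted p = 0.00942) and 0.75 (SE 0.11, edgeR adjusted p = 0.00337). Those E2 enzymes had values of 0.48 (SE 0.19) and 0.36 (SE 0.20) in WT livers. *Derl3*, a derlin of the ER membrane, fell by 1.55 on the log2 scale (SE 0.33, edgeR adjusted p = 0.0134), while its value in WT livers was 0.19 (SE 0.45). Its level was low, at 5.64, 3.76 and 3.93 CPM in KO vehicle livers and 2.26, 1.29 and 0.996 CPM in KO APAP livers. WT vehicle livers held 4.02, 1.03 and 2.83 CPM. In WT livers 0 of 24 passed with edgeR, 2 were higher and 4 lower at an unadjusted p under 0.05, and the DESeq2 Wald test called 1 in each direction. At that unadjusted threshold 18% of all genes passed in WT livers. *Dnajb9* in WT livers was at 33.6, 52.5 and 30.9 CPM with vehicle and at 80.0, 64.9 and 134 CPM after APAP (log2 fold change 1.26, SE 0.32, edgeR adjusted p = 0.0971).

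*Usp14* (chr18:9993615-10030149, minus strand) encodes a deubiquitinase that sits on the proteasome and trims chains from its substrates. It was at 25.4, 31.6 and 30.7 CPM in WT vehicle livers and at 46.2, 35.9 and 34.1 CPM in WT APAP livers. Livers labelled KO were at 29.9, 31.1 and 37.0 CPM with vehicle and at 43.4, 45.1 and 44.6 CPM after APAP. The APAP and vehicle groups did not overlap in CPM under either label, and WT APAP replicate 1 was the highest of all livers. On the TPM scale it was instead the lowest APAP liver, at 11.2 TPM against 13.9 to 20.6 TPM in the others, just above WT vehicle livers (10.5 to 11.2 TPM) and below all KO vehicle livers (11.8 to 14.1 TPM). The log2 fold changes were 0.42 (SE 0.19) in WT livers, 0.26 there without replicate 1, and 0.45 (SE 0.12) under the KO label. Exons of *Thoc1* on the opposite strand cover 26% of the exon bases of *Usp14*, and whether the counting used strand is not given in the sources used here.

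*Usp2* (chr9:44067021-44095627, plus strand) encodes a deubiquitinase whose liver transcript is known to follow the circadian clock. It was at 84.8, 26.5 and 65.0 CPM in WT vehicle livers and at 5.62, 13.4 and 10.2 CPM in WT APAP livers. Livers labelled KO were at 58.3, 74.2 and 60.2 CPM with vehicle and at 13.1, 16.0 and 4.48 CPM after APAP. All 6 APAP livers lay below all 6 vehicle livers. The log2 fold changes were -2.59 (SE 0.48) in WT livers and -2.51 (SE 0.40) under the KO label, so vehicle livers were 6.01-fold and 5.72-fold higher. Without WT APAP replicate 1, the lowest of its group, the value was -2.32, and without WT vehicle replicate 2 it was -2.94.

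WT vehicle replicate 2, the vehicle liver lowest in *Usp2*, also differed from its group in clock genes. The clock output gene *Dbp* was at 21.3 CPM there against 109 and 86.1 CPM in the other WT vehicle livers, *Per3* at 24.4 against 50.2 and 50.3 CPM, and the clock activator *Arntl* at 6.64 against 2.27 and 2.00 CPM. The clock hour at which each liver was taken is not given in the sources used here, and the part of these genes in the values of *Usp2* was not tested. In livers labelled KO 3 of 16 clock genes rose and 5 fell after APAP, with a median of -0.04, beside 13.0% and 9.60% of all genes. Among them, *Dbp* fell by 2.42 (SE 0.15, edgeR adjusted p = 8.44e-05), *Per3* fell by 1.80 (SE 0.14, edgeR adjusted p = 0.00023), *Arntl* rose by 3.79 (SE 0.39, edgeR adjusted p = 0.000814) and *Nr1d1* rose by 2.38 (SE 0.27, edgeR adjusted p = 0.00138). The WT values of *Dbp*, *Per3* and *Arntl* were -1.56 (SE 0.56), -1.43 (SE 0.36) and 2.41 (SE 0.58). In WT livers 1 of 15 rose, *Nr1d1* (2.64, SE 0.40, edgeR adjusted p = 0.0224), and 0 fell. Its call was lost without WT APAP replicate 3 (2.32), WT vehicle replicate 1 (3.03) or WT vehicle replicate 3 (2.57), and 2 clock genes rose without WT APAP replicate 1 or WT vehicle replicate 2 (1 fell without the latter). At an unadjusted p under 0.05, 2 clock genes were higher and 5 lower in WT livers, and the DESeq2 Wald test called 2 and 4. The unadjusted share over all genes was 18% there.

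Among 43 tested ubiquitin-specific proteases, 1 passed the threshold in WT livers, *Usp2*, which was lower, beside 0.427% of all genes called lower. At an unadjusted p under 0.05, 1 was higher and 3 lower there, beside 18% of all genes, and the DESeq2 Wald test also called 1 gene. In livers labelled KO 9 rose and 2 fell, and outside the 2 members these were 8 and 1 of 41. Of all genes tested there, 13.0% rose and 9.60% fell. *Usp38* rose by 0.96 (SE 0.13, edgeR adjusted p = 0.0024), *Usp36* by 0.94 (SE 0.14, edgeR adjusted p = 0.00337) and *Usp28* by 0.69 (SE 0.14, edgeR adjusted p = 0.00955), and *Usp40* fell by 0.69 (SE 0.14, edgeR adjusted p = 0.0103). Their values in WT livers were 0.53 (SE 0.21), 0.26 (SE 0.18), -0.05 (SE 0.25) and -0.58 (SE 0.23). The count of 9 dropped to between 3 and 5 without any liver except KO APAP replicate 2, and was 3 without KO vehicle replicate 2. The medians of the list were 0.02 and 0.15.

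**Figure D3:**
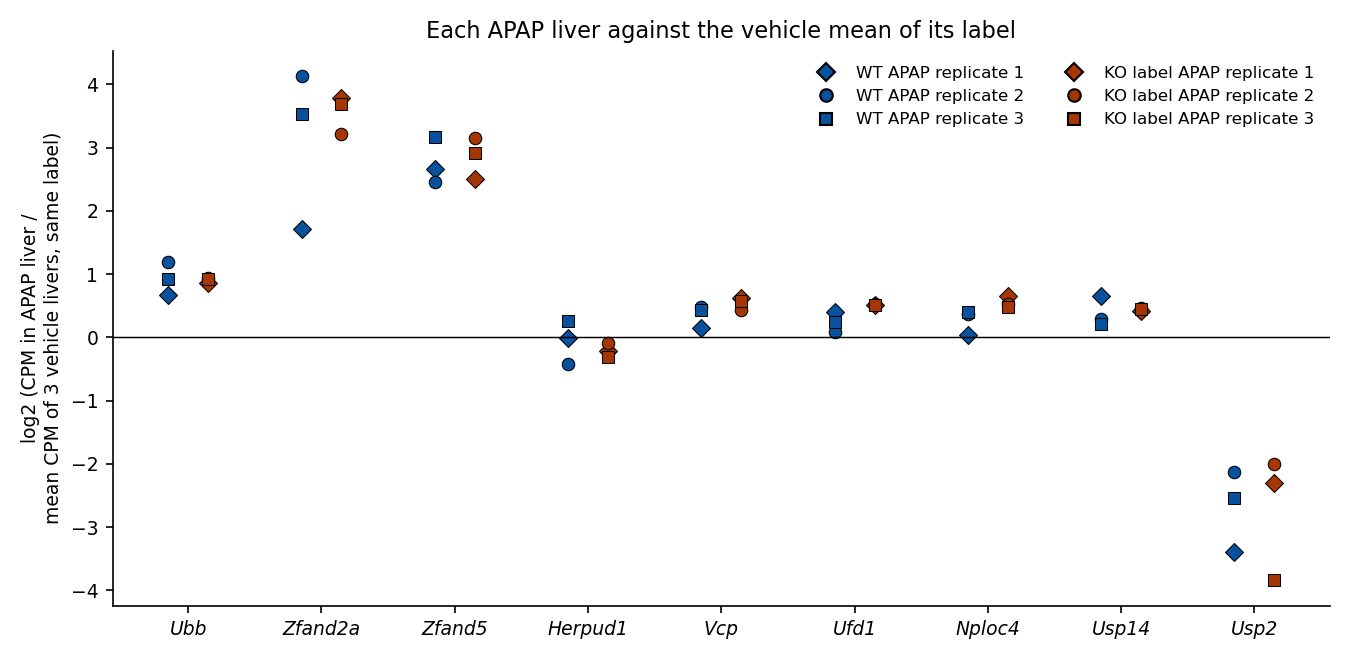
Log2 ratio of each APAP liver to the mean of the 3 vehicle livers of its own label, in CPM, with symbols for replicates and colors for labels. WT APAP replicate 1 (blue diamonds) lies at 1.72 for *Zfand2a* where the other 5 APAP livers lie between 3.22 and 4.13, and *Herpud1* scatters around 0.

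Between the labels, 0 of the 9 genes passed the test with 3 livers a group. After APAP, WT against the KO label called 0 of the 9 with edgeR or with the DESeq2 Wald test, beside 0.0309% of 16174 genes called with edgeR. At an unadjusted p under 0.05, 0 of the 9 passed, beside 3.31% of all genes. Log2 differences (WT over KO label) ran from -0.31 (SE 0.50) for *Zfand2a* to 0.13 (SE 0.20) for *Ubb*, and the smallest p belonged to *Nploc4* (-0.28, SE 0.17, edgeR adjusted p = 0.958). The value of *Vcp* was -0.24 (SE 0.18). For these 2 of the 9, all 3 WT livers given APAP lay below all 3 KO livers given APAP in CPM, and groups did not overlap for 8.73% of all genes in this comparison. With vehicle the groups overlapped for all 9, where 14.0% of all genes did not overlap. With WT APAP replicate 1 left out, *Zfand2a* stood at 0.12 in this comparison, so its sign turned on that liver. With vehicle, 0 of the 9 were called by either tool, beside 0.0262% of 15262 genes called with edgeR. There 0 of the 9 had an unadjusted p under 0.05, beside 7.56% of all genes. Values ran from -0.18 (SE 0.23) for *Herpud1* to 0.14 (SE 0.13) for *Ufd1*. The smallest p with vehicle was that of *Zfand2a* (-0.16, SE 0.14, edgeR adjusted p = 0.816). For the interaction of label and treatment over all 12 livers, 0 of the 9 passed with either tool and 0 had an unadjusted p under 0.05, beside 0% of 16509 genes with edgeR, of which 848 had an unadjusted p under 0.05 and the DESeq2 Wald test called 7 higher and 2 lower. Interaction terms ran from -0.27 (SE 0.19) for *Nploc4* to 0.18 (SE 0.33) for *Herpud1*, and the smallest p was that of *Ufd1* (-0.27, SE 0.18, edgeR adjusted p = 0.876). The 2 comparisons of APAP against vehicle share no livers.

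The proteasome, the E1 and E2 enzymes and the chaperones were examined as the neighbours of these genes in protein quality control. All 33 subunits of the 26S proteasome had a positive value in WT livers, with a median of 0.36 and a range of 0.02 to 0.69. The median over all genes tested was 0.03. These values come from counts. In TPM, WT APAP replicate 1 lay below all WT vehicle livers for *Psmd11* (36.8 against 40.1 to 47.5) and *Adrm1* (60.6 against 63.9 to 71.0). The same held for *Psmd7* (39.0 against 48.8 to 51.1) and *Psmd3* (39.9 against 56.7 to 61.6). For *Psmd4* it lay above them (97.1 against 84.5 to 94.5). With edgeR 0 of the 33 passed in WT livers. At an unadjusted p under 0.05, 10 were higher and 0 lower, beside 18% of all genes, and the DESeq2 Wald test called 3 higher. In livers labelled KO 27 of 33 were positive (median 0.25), and 9 rose and 0 fell, beside 13.0% and 9.60% of all genes. The count of 9 was 4 without KO APAP replicate 3 or KO vehicle replicates 1 or 2, and 5 without KO APAP replicate 1. The lid subunit *Psmd11* rose by 1.04 (SE 0.12, edgeR adjusted p = 0.00154), the ubiquitin receptor *Adrm1* by 1.02 (SE 0.13, edgeR adjusted p = 0.00235) and the lid subunit *Psmd7* by 0.71 (SE 0.11, edgeR adjusted p = 0.00478), beside 0.69, 0.62 and 0.44 in WT livers.

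Among the 30 tested E1 and E2 enzymes, a list that includes *Ube2g2* and *Ube2j2*, 7 rose and 2 fell under the KO label (median 0.19). Of all genes, 13.0% rose and 9.60% fell there. *Ube2s*, an E2 that extends chains on mitotic substrates, rose by 0.57 (SE 0.11, edgeR adjusted p = 0.00959), beside 0.25 (SE 0.24) in WT livers. The count of 7 was 3 without KO APAP replicate 1 or replicate 3 and 4 without KO vehicle replicate 1 or replicate 2. The count of 2 that fell was 1 without KO APAP replicate 1 or KO vehicle replicate 3 and 0 without any other liver. In WT livers 0 of 30 passed with edgeR or the DESeq2 Wald test, and the median was 0.15. At an unadjusted p under 0.05, 3 were higher and 1 lower there, beside 18% of all genes.

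All 12 heat shock factor targets were positive in both comparisons, with medians of 2.84 in WT livers and 2.94 under the KO label. With edgeR, 3 rose in WT livers and 11 under the KO label, beside 1.62% and 13.0% of all genes. At an unadjusted p under 0.05, 10 were higher and 0 lower in WT livers, beside 18% of all genes, and the DESeq2 Wald test called 10 there. The count of 3 was 5 without WT APAP replicate 1, 1 without WT APAP replicate 3 or WT vehicle replicates 1 or 2, and 0 without WT vehicle replicate 3. *Dnajb1*, the co-chaperone of Hsp70, was at 32.6, 16.8 and 18.8 CPM in WT vehicle livers and at 317, 812 and 908 CPM in WT APAP livers. As for *Zfand2a*, WT APAP replicate 1 was the lowest APAP liver. The log2 fold change of *Dnajb1* was 4.91 (SE 0.50, edgeR adjusted p = 0.0070) in WT livers, a call lost without WT vehicle replicate 3 (4.77), and 5.08 (SE 0.19, edgeR adjusted p = 1.18e-05) under the KO label.

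**Figure D4:**
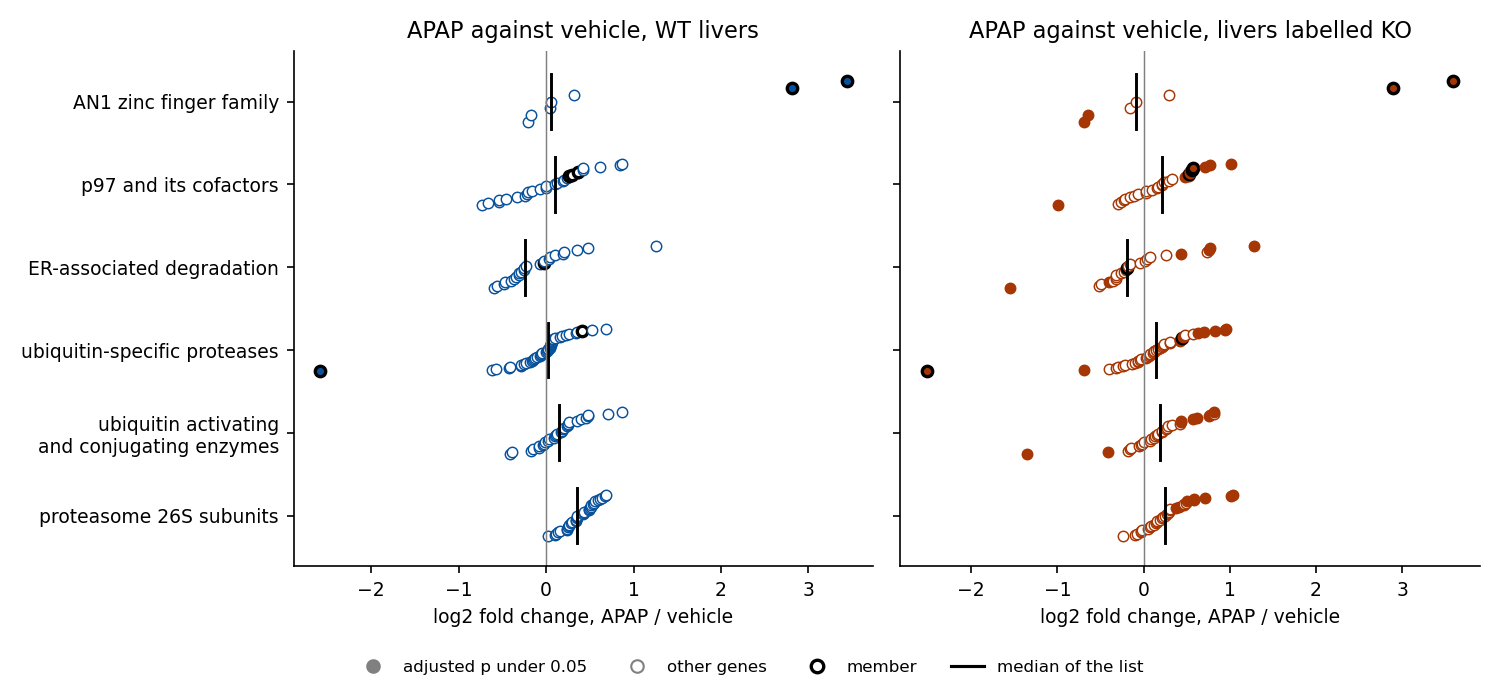
Log2 fold changes (APAP over vehicle) of every tested gene in 6 lists of the ubiquitin system, in WT livers (left) and livers labelled KO (right), filled where the adjusted p was under 0.05, with thick outlines for those of the 9 genes that the lists hold (all but *Ubb*) and a vertical bar at the median of each list. Proteasome subunits all lie right of 0 in WT livers without a filled point, and 9 of them are filled under the KO label.

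The genes with profiles most like each member were taken from 16509 genes over the 12 livers, by the root mean square (RMS) difference between log2 CPM profiles centred on their own means. This is a description, and the livers share their groups and libraries. *Ubb* was closest to *Gm1821* (RMS 0.07), with which it shares sequence, and then to *Ikbkg* and *Siah2* (both 0.15). *Zfand2a* was closest to *Tmem171* (0.39) and to the chaperone *Hsp90aa1* (0.41), and *Zfand5* to *Gjd4* (0.25), *Stpg3* (0.26) and *Sqstm1* (0.27), which encodes the ubiquitin-binding autophagy receptor p62. *Herpud1* was closest to *Tmcc1* (0.11) and to the ER oxidoreductase *Pdia3* (0.17), and *Usp2* to *Map2k6* (0.32). *Vcp* was closest to *Ncbp1* (0.06) and *Nploc4* to *Map3k3* (0.07), which also ranked second for *Vcp* (0.07). *Ufd1* was closest to *Ccdc115* (0.07) and *Usp14* to *Acer3* (0.10). Among pairs of members, *Vcp* and *Nploc4* were the most alike (0.07), followed by *Ufd1* and *Usp14* (0.15).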

How the data were processed

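Liver RNA of 12 mice was sequenced (stranded poly-A libraries, paired-end reads). The authors deposited raw read counts, 1 whole number for each gene and liver. Their deposited TPM values were used to compare levels between genes, to set single livers against others, and in the limma alternatives. FPKM values deposited by the authors were not used. The submitters' processing notes name FastQC 0.11.7, Trimmomatic 0.38, HISAT2 2.1.0, Bowtie2 2.3.4.1, StringTie 2.1.3b and the mm10 (GRCm38) build, without their roles. The strand setting of the counting is not given in the sources used here. Dose, time and fasting were taken from the study's methods.

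Counts were scaled by TMM, filtered with filterByExpr and fitted in edgeR 4.0.16 (R 4.3.3; glmQLFit and glmQLFTest) on the 6 livers compared or, for the interaction, on all 12. P-values were adjusted by Benjamini-Hochberg across every gene that passed the filter, and an adjusted p under 0.05 was called. SE is the absolute log2 fold change divided by the square root of the F statistic. Each liver is a separate animal. The 9 genes and the lists were chosen with earlier results of these data known. Besides the 9, each list's named genes are at most 5 with the smallest unadjusted p in APAP against vehicle, and each member's like genes are the closest 3, of which some are named. *Gm8797*, *Vcp-rs* and *Thoc1* were named for shared sequence or position. Alternatives were DESeq2 1.42.0 (size factors, Wald test), no filter, at least 10 counts in every sample, limma 3.58.1 after quantile normalization of TPM on a log2 scale (pseudocounts 1 and 0.1), the replicate number as a block, all 12 livers in 1 fit, each liver left out and, chosen after seeing the data, edgeR's newer quasi-likelihood method. A planned comparison of protein sequences was not made here. Some genes of the lists are not reported here. The pipeline was tested on simulated data. Promoters and gene coordinates are from RefSeq (GRCm38.p6). Transcript sequences, exon overlaps and gene strands are from the GENCODE mouse annotation. At most 2.72% of gene counts were identical between any 2 libraries.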

Additional observations from a re-analysis of the deposited data

How the results depend on the processing

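In WT livers, 1 member was higher and 0 lower under limma at log2(TPM + 1) or log2(TPM + 0.1), where *Zfand2a* (2.92 and 3.13) and *Usp2* (-2.33 and -2.56) kept their direction without passing. With each liver left out, 1 to 3 members were higher and 0 to 1 lower in WT livers, and 4 to 7 were higher under the KO label, with 4 without KO APAP replicate 1 or KO vehicle replicate 2. The causes were not tested. The liver numbers do not mark pairs by their labels, and over 18 pairs of same-numbered livers the correlation of deviations from the group means ran from -0.264 to 0.107. With the replicate number as a block, 1 member was higher and 0 lower in WT livers, 61 and 1 of all genes were called, and *Usp14* under the KO label no longer passed (0.46). Without the block these were 255 and 67 of all genes.

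The following values changed sign. Under limma at log2(TPM + 1) and log2(TPM + 0.1), *Zfand2b* in WT livers was at -0.00998 and -0.0103, *Ubb* in WT against the KO label after APAP at -0.10 in both, and the interaction of *Herpud1* at -0.0390 and -0.0391. With each liver left out, WT values ran from -0.19 to 0.20 for *Herpud1*, -0.58 to 0.0470 for *Zfand6*, -0.10 to 0.19 for *Zfand4* and -0.0602 to 0.11 for *Zfand2b*. Under the KO label they ran from -0.34 to 0.0326 for *Zfand4* and -0.20 to 0.0122 for *Zfand2b*. In WT against the KO label after APAP they ran from -0.85 to 0.12 for *Zfand2a* and -0.0152 to 0.24 for *Ubb*. With all 12 livers in 1 fit, *Ubb* passed in WT livers (0.94) and *Usp14* did not under the KO label (0.44). Counts of all genes called in WT livers went from 255 higher and 67 lower to 877 and 536 with the DESeq2 Wald test, 968 and 555 with all 12 livers in 1 fit and 169 and 65 with limma at log2(TPM + 1), and with each liver left out they ran from 41 to 316 and from 0 to 126. Under the KO label, all 12 livers in 1 fit called 844 lower in place of 1504. With each liver left out there, 1261 to 1967 were higher in place of 2034 (1261 without KO vehicle replicate 2, 1320 without KO APAP replicate 3) and 734 to 1401 were lower (734 and 751 without the same livers, 946 without KO vehicle replicate 1 and 937 without replicate 3). The DESeq2 Wald test called 21 genes higher and 8 lower in WT against the KO label after APAP, 62 and 75 with vehicle and 7 and 2 for the interaction, none of them a member. With 3 livers in each group, the calls of *Vcp*, *Ufd1* and *Usp14* under the KO label turned on single livers.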
